A study of Mus musculus with 12 samples.

Results

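The genes described here encode subunits of the nuclear RNA polymerases I, II and III, with 5 factors that start transcription by polymerase I. They were chosen by gene name and number 31 of the 24421 mouse genes counted. All 31 had enough reads to be tested, among 14497 genes in all. The libraries come from E14 mouse embryonic stem cells labelled WT(dCas_Alkbh5), a line grown on gelatin with serum and LIF that carries a dCas protein joined to Alkbh5, a demethylase that erases m6A from RNA. The labels do not say what drives this fusion or whether the line is a single clone. Every group received a guide plasmid, selection in 8 µg/mL blasticidin for 3 days and then 5 days of pausing with 200 nM of the mTOR inhibitor INK128; mTOR is a kinase that couples nutrients to growth, and its inhibition brings these cells into a dormant-like paused state. By the labels the groups differ in the guide alone, which was Mycn-gRNA2, Mycn-gRNA3 or, as the control, a non-targeting guide (NT), with 4 libraries each. The comparison asks how the polymerase genes stand in cells in which the demethylase is directed at the transcript of Mycn, a growth-promoting transcription factor of the MYC family. Unpaused cells and cells without the fusion are not among these groups, so each difference is between paused cells that all carry it.

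Polymerase I makes the long precursor of ribosomal RNA, polymerase II makes messenger RNA, and polymerase III makes transfer RNA, the 5S ribosomal RNA and other short RNAs. Each is built around a large catalytic pair of subunits, and a set of small subunits is common to all of them, while another pair is common to polymerases I and III. MYC proteins are known in growing cells to raise transcription by each of these enzymes, and mTOR signalling is known to be needed for full activity of polymerases I and III. The messenger RNAs of the subunits were measured here, not the proteins or the activity of the enzymes.

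Libraries held 17248564 to 33819855 reads on mouse genes, and 1.04% to 1.61% of reads fell on ERCC RNAs, synthetic RNAs added to RNA extracted from 200000 cells per sample. Levels were read in 2 ways: counts scaled to library size with TMM factors (CPM), which place a gene relative to the transcriptome, and reads per 1000 ERCC reads. The latter follow the amount of RNA from an equal number of cells only if cell number and RNA yield were alike between samples, which was not checked. Endogenous reads per ERCC read were 65.6 to 95.6 with Mycn-gRNA2, 83.0 to 94.5 with Mycn-gRNA3 and 61.3 to 72.1 in NT. A gene was called higher or lower at an adjusted p under 0.05 in edgeR's quasi-likelihood test over all 14497 genes. Shares of all genes are given for that call only. Counts at an unadjusted p or from DESeq2 have no such share beside them. Mycn itself stood at 205, 224, 254 and 262 CPM with Mycn-gRNA2 and 267, 289, 292 and 258 CPM with Mycn-gRNA3, against 141, 146, 139.8 and 136 CPM in NT, so that each library with a Mycn guide lay above each NT library. The NT libraries also stood apart in genes of the Y chromosome. Kdm5d, Eif2s3y, Ddx3y and Uty summed to 32.4 to 83.7 CPM with Mycn-gRNA2 and 46.1 to 63.5 CPM with Mycn-gRNA3, against 0.0448 to 0.181 CPM in NT. Whether the guide and NT cells were of 1 sub-line was not tested, and in each comparison with NT the guide and this difference cannot be told apart. Lists of 10 marker genes each read 3831 to 4542 CPM with Mycn-gRNA2, 4604 to 4705 CPM with Mycn-gRNA3 and 4883 to 5446 CPM in NT for embryonic stem cells (0 called higher, 4 lower). They read 480.0 to 599.6 CPM with Mycn-gRNA2, 507 to 596.5 CPM with Mycn-gRNA3 and 365 to 451 CPM in NT for primitive endoderm (7 higher, 0 lower). The fibroblast or feeder list summed to 7.33 to 10.7 CPM with Mycn-gRNA2 and 8.84 to 12.3 CPM with Mycn-gRNA3, against 1.58 to 2.29 CPM in NT, and 5 of its 5 tested genes were higher with the guides, while Lum and Postn had no read in NT. Of 6 neural markers 4 were higher and 1 lower, with sums of 163 to 285 CPM with Mycn-gRNA2, 193 to 259.6 CPM with Mycn-gRNA3 and 209.6 to 257 CPM in NT, and of 6 tested trophoblast markers 2 were higher. The part of these differences in the polymerase results was not tested, and in bulk RNA fewer cells of a type and less RNA per cell cannot be told apart. Mycn-gRNA2 replicate 1 differed most from its own group, with a chi-square per degree of freedom of 46.0 to 72.8 against the other 3 libraries, where the remaining pairs within groups gave 8.57 to 30.7.

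Relative to the transcriptome, the polymerase genes moved in both directions with the Mycn guides. Of the 31 genes, 8 rose (25.8%), 3 fell (9.68%) and 20 were not called with both guides against NT, where 14.9% of all genes tested were called higher and 13% lower. The genes that rose were Polr1b, Polr1e, Polr1d, Polr2e, Polr2h, Polr2l, Polr2j and Polr3g, by 0.24 to 0.56 on the log2 scale. Those that fell relative to the transcriptome were Polr2a, Polr3gl and Polr3b, by 0.15 to 0.35, and per ERCC read these 3 were not called. The median log2 fold change of the 31 genes was 0.06, beside -0.003 for all genes tested. By enzyme, 3 of the 5 subunits common to all polymerases rose and none fell (median 0.28). Of the polymerase I subunits among the 31, 2 of 3 rose (median 0.24), and of those common to polymerases I and III 1 of 2 (median 0.17). Of 9 further polymerase I genes outside the 31, 1 rose and 2 fell (median -0.06). Polymerase II showed 1 higher and 1 lower of 7 (median -0.01), and polymerase III 1 higher and 2 lower of 9 (median 0.01). Of the polymerase I factors edgeR called 0 of 5 (median -0.04), and Taf1b alone had an unadjusted p under 0.05. Without NT replicate 3 or without NT replicate 4 the count of genes that rose was 5 in either case, and without Mycn-gRNA2 replicate 1 it was 11, with 4 lower. For these fits with a library left out, counts over all genes are not given. With replicates 1 and 2 alone none of the 11 calls was kept (adjusted p 0.163 to 0.685), and with replicates 3 and 4 alone 13 genes rose and 3 fell.

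**Figure D1:**
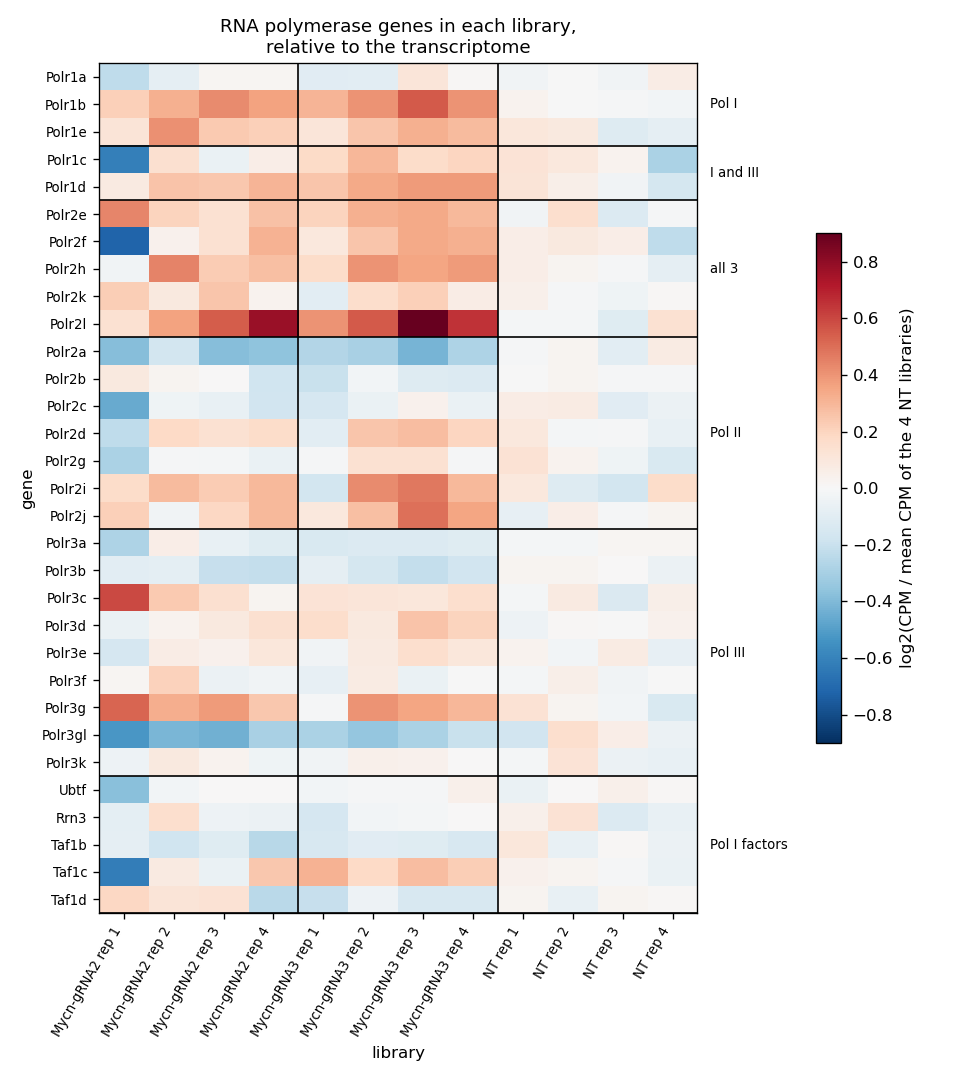
Each row is a polymerase gene and each column a library, with Mycn-gRNA2 at the left, Mycn-gRNA3 in the middle and NT at the right; colour gives log2 of the CPM over the mean CPM of the 4 NT libraries, red above and blue below. Polr1b is red in all 8 guide libraries and Polr2a and Polr3gl are blue in all 8, on this scale relative to the transcriptome.

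Among the listed subunits found in polymerase I alone, Polr1b and Polr1e rose and the largest subunit, Polr1a, was not called. Polr1b (chromosome 2, positions 129100996 to 129126595 of mm10, plus strand) encodes the second largest subunit, which forms the catalytic centre together with Polr1a. It read 165, 177, 190.4 and 182 CPM with Mycn-gRNA2 and 175, 188, 208 and 188 CPM with Mycn-gRNA3, against 146, 142, 141 and 139.6 CPM in NT. All 8 guide libraries lay above the highest NT library, and the 4 NT libraries lay between 139.6 and 145.5 CPM. Polr1b rose by 0.38 log2 units (edgeR adjusted p = 0.000326, SE 0.0564) relative to the transcriptome and by 0.77 log2 units (edgeR adjusted p = 1.29e-05, SE 0.129) per ERCC read. Polr1e (chromosome 4, positions 45018609 to 45034279 of mm10, plus strand), a polymerase I subunit that helps the enzyme reach its promoter and elongate, read 25.1, 30.9, 27.3 and 26.9 CPM with Mycn-gRNA2 and 25.01, 27.5, 28.8 and 28.2 CPM with Mycn-gRNA3, against 24.9, 24.6, 21.3 and 21.9 CPM in NT. The guide libraries again all lay above NT, but Mycn-gRNA2 replicate 1 and Mycn-gRNA3 replicate 1 did so by under 1 CPM. Its rise was 0.24 log2 units (edgeR adjusted p = 0.0231, SE 0.0733), and the call was lost without NT replicate 3 (adjusted p = 0.0919) and without NT replicate 4 (adjusted p = 0.083). Polr1a (chromosome 6, positions 71909053 to 71979360 of mm10, plus strand) read 206, 229, 245 and 245 CPM with Mycn-gRNA2 and 225, 226, 260.5 and 244 CPM with Mycn-gRNA3, against 236, 241, 236 and 253 CPM in NT. These groups overlapped, and its log2 fold change relative to the transcriptome was -0.04 (edgeR adjusted p = 0.657, SE 0.0601).

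Of the pair shared by polymerases I and III, Polr1d rose and Polr1c was not called. Polr1d (chromosome 5, positions 147077346 to 147111361 of mm10, plus strand), which joins Polr1c in the assembly platform of both enzymes, read 94.7, 107, 106 and 110.5 CPM with Mycn-gRNA2 and 106, 113, 117 and 116 CPM with Mycn-gRNA3, against 96.9, 92.9, 87.6 and 79.9 CPM in NT. Mycn-gRNA2 replicate 1 fell between the NT libraries and the other 7 guide libraries lay above them. Polr1d rose by 0.28 log2 units (edgeR adjusted p = 0.00457, SE 0.0629). Its partner Polr1c averaged 93.2 ± 19.8 CPM with Mycn-gRNA2, 115 ± 4.98 CPM with Mycn-gRNA3 and 99.2 ± 12.2 CPM in NT (SD, n = 4 each), with a log2 fold change of 0.06 (edgeR adjusted p = 0.741). Mycn-gRNA2 replicate 1, at 64.8 CPM, and NT replicate 4, at 81.5 CPM, were the low libraries for Polr1c, and the other 10 lay between 94.97 and 122 CPM.

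Of the small subunits that sit in all 3 polymerases, 3 of 5 rose. Polr2l (chromosome 7, positions 141471860 to 141475153 of mm10, minus strand), among the smallest subunits, showed the largest change of the 31 genes. It read 30.8, 36.1, 40.95 and 48.05 CPM with Mycn-gRNA2 and 37.1, 41.2, 52.2 and 43.9 CPM with Mycn-gRNA3, against 27.7, 27.7, 25.9 and 30.8 CPM in NT. Mycn-gRNA2 replicate 1 matched the highest NT library and the other 7 guide libraries exceeded it. Polr2l rose by 0.56 log2 units (edgeR adjusted p = 0.0029, SE 0.115) relative to the transcriptome, and per ERCC read by 0.96, where all 8 guide libraries lay above NT. Polr2e (chromosome 10, positions 80035953 to 80039659 of mm10, minus strand), a subunit of the jaw that grips the incoming DNA, read 136, 115, 110.0 and 120.2 CPM with Mycn-gRNA2 and 115, 125, 127 and 122 CPM with Mycn-gRNA3, against 97.97, 111, 92.1 and 99.2 CPM in NT. Only Mycn-gRNA2 replicate 3 lay below the highest NT library, NT replicate 2. Polr2e rose by 0.28 log2 units (edgeR adjusted p = 0.00732, SE 0.0668). Polr2h (chromosome 16, positions 20717826 to 20722265 of mm10, plus strand) read 31.4, 43.8, 37.6 and 38.9 CPM with Mycn-gRNA2 and 36.03, 42.6, 41.1 and 41.9 CPM with Mycn-gRNA3, against 33.6, 32.8, 31.9 and 30.5 CPM in NT. Here Mycn-gRNA2 replicate 1 lay inside the NT range, and the rise of 0.28 log2 units (edgeR adjusted p = 0.0188, SE 0.0810) was lost without NT replicate 3 (adjusted p = 0.0553) and without NT replicate 4 (adjusted p = 0.0682). Polr2f averaged 41.4 ± 11.4 CPM with Mycn-gRNA2, 49.8 ± 3.73 CPM with Mycn-gRNA3 and 41.7 ± 4.13 CPM in NT (SD, n = 4 each), and its low library was Mycn-gRNA2 replicate 1 at 25.3 CPM. Its log2 fold change was 0.12 (edgeR adjusted p = 0.549), and without that library it was 0.21 and called (adjusted p = 0.029). Polr2k averaged 21.1 ± 1.51 CPM with Mycn-gRNA2, 20.2 ± 1.85 CPM with Mycn-gRNA3 and 18.97 ± 0.452 CPM in NT (SD, n = 4 each) and was not called (log2 fold change 0.12, edgeR adjusted p = 0.223). Summed per length, the 5 shared subunits reached 725 to 828 TPM (reads per length, scaled to a common total per library) with Mycn-gRNA2 and 778 to 853 TPM with Mycn-gRNA3, against 671 to 738 TPM in NT, so that Mycn-gRNA2 overlapped NT and Mycn-gRNA3 did not.

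The largest subunit of polymerase II fell relative to the transcriptome. Polr2a (chromosome 11, positions 69733999 to 69758633 of mm10, minus strand) carries the long C-terminal tail whose phosphorylation follows the steps of transcription. It read 566, 657, 567 and 574 CPM with Mycn-gRNA2 and 616, 603, 552 and 608 CPM with Mycn-gRNA3, against 731, 752, 692 and 777 CPM in NT. All 8 guide libraries lay below the lowest NT library, with Mycn-gRNA2 replicate 2 nearest to NT. Polr2a fell by 0.32 log2 units (edgeR adjusted p = 0.00121, SE 0.0571) relative to the transcriptome, whereas per ERCC read its log2 fold change was 0.07 (edgeR adjusted p = 0.59, SE 0.120). On that scale it read 46.9, 41.95, 46.6 and 55.1 reads per 1000 ERCC reads with Mycn-gRNA2 and 58.7, 56.2, 52.4 and 49.9 reads per 1000 ERCC reads with Mycn-gRNA3, against 43.6, 55.3, 45.5 and 48.7 reads per 1000 ERCC reads in NT, and the groups overlapped. Polr2j (chromosome 5, positions 136116691 to 136122947 of mm10, plus strand), which pairs with Polr2c in the assembly platform, read 42.7, 35.98, 41.8 and 44.99 CPM with Mycn-gRNA2 and 39.3, 44.4, 51.96 and 47.2 CPM with Mycn-gRNA3, against 34.97, 38.3, 36.6 and 37.4 CPM in NT. Mycn-gRNA2 replicate 2 lay within the NT range and the other 7 guide libraries above it. The rise of Polr2j by 0.24 log2 units (edgeR adjusted p = 0.034, SE 0.0784) was the least firm of the 8, since it was lost when any of NT replicates 1, 2, 3 and 4, Mycn-gRNA2 replicates 3 and 4 or Mycn-gRNA3 replicates 3 and 4 was left out (adjusted p 0.0557 to 0.104).

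The other 5 polymerase II subunits were not called relative to the transcriptome. Polr2b, the second largest and the partner of Polr2a in the catalytic centre, averaged 217 ± 16.9 CPM with Mycn-gRNA2, 202 ± 10.1 CPM with Mycn-gRNA3 and 219 ± 2.67 CPM in NT (SD, n = 4 each), with a log2 fold change of -0.06 (edgeR adjusted p = 0.428). Polr2c had -0.12 (adjusted p = 0.268), and 26.2% of its annotated exon length overlaps Dok4 on the opposite strand, from which its reads may not be separable because the sources used here do not state the strand setting of the counting. Polr2d and Polr2g, which form the removable stalk of the enzyme, had 0.12 (adjusted p = 0.338) and -0.01 (adjusted p = 0.908). Polr2i, known for a part in proofreading and elongation, read 15.1, 16.4, 15.8 and 16.5 CPM with Mycn-gRNA2 and 12.02, 18.1, 18.7 and 16.5 CPM with Mycn-gRNA3, against 14.4, 12.4, 11.99 and 15.1 CPM in NT. Its log2 fold change of 0.26 was larger than that of Polr2j, but its libraries spread more (edgeR adjusted p = 0.0929, SE 0.110). Mycn-gRNA3 replicate 1, at 12.02 CPM, lay near the low end of the NT range. Without that library Polr2i was called, at 0.32 (adjusted p = 0.011). Its exons overlap Ovol3 on the opposite strand over 13.2% of their length, with the same limit as for Polr2c. Per length, the 7 polymerase II subunits together summed to 948 ± 29.04 TPM with Mycn-gRNA2, 976 ± 35.04 TPM with Mycn-gRNA3 and 1008 ± 21.4 TPM in NT (SD, n = 4 each). The ranges of 914 to 981.5 TPM with Mycn-gRNA2, 932 to 1014 TPM with Mycn-gRNA3 and 978 to 1025 TPM in NT overlapped.

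**Figure D2:**
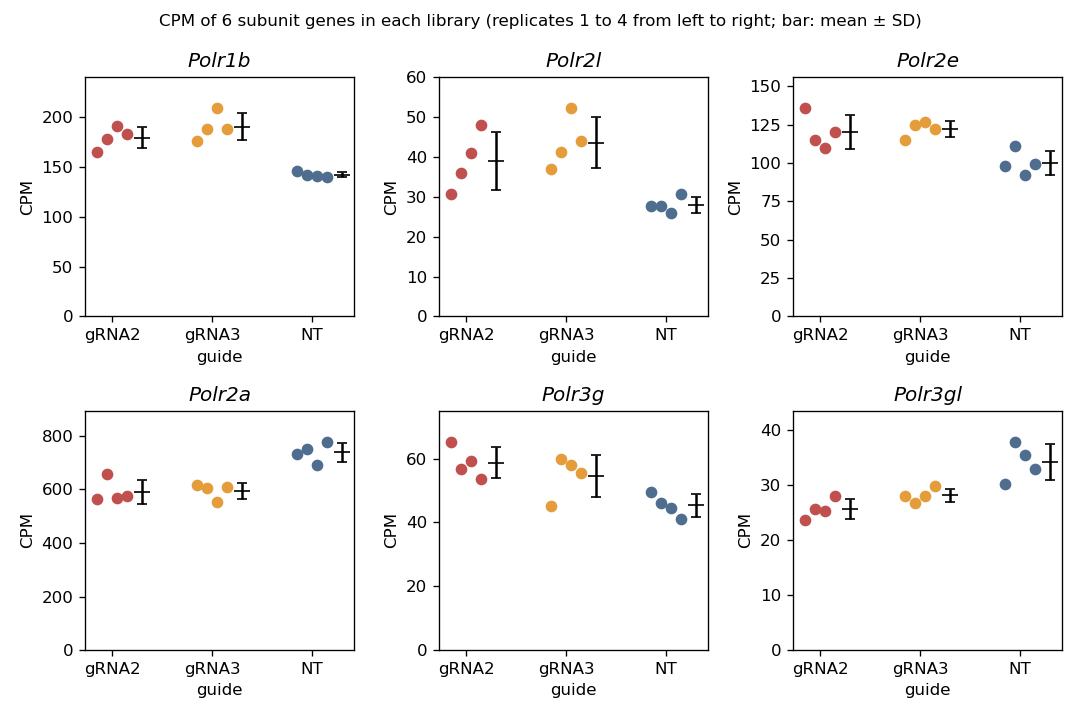
CPM of 6 subunit genes (vertical axes, each from 0) in every library of Mycn-gRNA2, Mycn-gRNA3 and NT, with replicates 1 to 4 from left to right and the mean ± SD beside them. For Polr1b all guide libraries lie above NT, for Polr2a and Polr3gl all lie below it relative to the transcriptome (per ERCC read those 2 genes overlap NT), and for Polr2l, Polr2e and Polr3g 1 guide library meets the NT range.

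In polymerase III a pair of interchangeable subunits moved in opposite directions relative to the transcriptome. Polr3g and Polr3gl are paralogs that take the same place in the enzyme. In human stem cells POLR3G is known as the form of undifferentiated and proliferating cells, while POLR3GL is present widely. Polr3g (chromosome 13, positions 81673837 to 81711013 of mm10, minus strand) read 65.2, 56.9, 59.2 and 53.7 CPM with Mycn-gRNA2 and 45.1, 59.9, 57.9 and 55.7 CPM with Mycn-gRNA3, against 49.5, 46.2, 44.5 and 41.1 CPM in NT. Mycn-gRNA3 replicate 1 lay within the NT range and the other 7 guide libraries above it. Polr3g rose by 0.32 log2 units (edgeR adjusted p = 0.0103, SE 0.0826) relative to the transcriptome and by 0.72 log2 units (edgeR adjusted p = 8.97e-05, SE 0.138) per ERCC read, where all 8 guide libraries exceeded NT. Polr3gl (chromosome 3, positions 96577872 to 96594181 of mm10, minus strand) read 23.7, 25.7, 25.3 and 27.97 CPM with Mycn-gRNA2 and 28.0, 26.9, 28.04 and 29.8 CPM with Mycn-gRNA3, against 30.3, 37.9, 35.6 and 33.02 CPM in NT. Every guide library lay below every NT library, although Mycn-gRNA3 replicate 4 and NT replicate 1 were within 1 CPM of each other. Polr3gl fell by 0.35 log2 units (edgeR adjusted p = 0.00237, SE 0.0690) relative to the transcriptome, and per ERCC read its log2 fold change was 0.04 (edgeR adjusted p = 0.796, SE 0.143). On the ERCC scale it read 1.97, 1.64, 2.08 and 2.68 reads per 1000 ERCC reads with Mycn-gRNA2 and 2.67, 2.50, 2.67 and 2.44 reads per 1000 ERCC reads with Mycn-gRNA3, against 1.81, 2.79, 2.34 and 2.07 reads per 1000 ERCC reads in NT. The ratio of Polr3g to Polr3gl per length does not depend on the scaling and was 1.08 ± 0.161 with Mycn-gRNA2 and 0.906 ± 0.124 with Mycn-gRNA3, against 0.624 ± 0.0926 in NT (SD, n = 4 each). The ratio ran from 0.895 to 1.28 with Mycn-gRNA2, from 0.751 to 1.04 with Mycn-gRNA3 and from 0.568 to 0.762 in NT. A single guide library, Mycn-gRNA3 replicate 1, lay below the highest NT library, NT replicate 1. Paralogs of like sequence can share reads, and the sources used here do not state how the counting treated them.

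The windows upstream of both genes are shown because the paralogs moved in opposite directions relative to the transcriptome and one window holds the motif CACGTG, the canonical E-box that MYC proteins bind with their partner Max. Each is the 250 bases before the annotated start site, from RefSeq on GRCm38.p6, the build that mm10 denotes, read 5′ to 3′ on the gene's strand with CACGTG in capitals. Both lie on the minus strand, Polr3g at chr13:81711014-81711263 and Polr3gl at chr3:96594182-96594431.
Polr3g: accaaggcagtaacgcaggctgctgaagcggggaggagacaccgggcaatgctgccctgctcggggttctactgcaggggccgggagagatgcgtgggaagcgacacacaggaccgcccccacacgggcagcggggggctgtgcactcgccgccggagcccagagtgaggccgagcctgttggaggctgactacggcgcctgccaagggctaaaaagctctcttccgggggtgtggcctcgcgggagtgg
Polr3gl: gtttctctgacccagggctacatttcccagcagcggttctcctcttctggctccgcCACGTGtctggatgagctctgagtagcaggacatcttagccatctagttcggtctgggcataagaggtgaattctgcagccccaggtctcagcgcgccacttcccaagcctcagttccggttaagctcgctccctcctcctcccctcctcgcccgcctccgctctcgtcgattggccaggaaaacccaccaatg
CACGTG occurs once in the Polr3gl window, beginning 194 bases before the start site, and not in the Polr3g window, which is 68.4% G and C against 59.2% for Polr3gl. CACGTG reads the same on both strands, so a single scan covers both. Windows were found for 26 of the 31 genes, and 3 of the 26 (11.5%) hold it, Polr3c, Polr3gl and Rrn3, the last at 215 and 48 bases before the start. Among all 27025 genes with a window 6.86% hold it. Of the 8 genes that rose none has CACGTG in this window, and of the 3 that fell relative to the transcriptome Polr3gl has it. A match is a description of these letters and does not show that a factor binds there.

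Polr3b (chromosome 10, positions 84622437 to 84727178 of mm10, plus strand), the second largest subunit of polymerase III, read 134, 135, 124 and 124 CPM with Mycn-gRNA2 and 136, 129, 123 and 128 CPM with Mycn-gRNA3, against 146, 146, 144 and 138 CPM in NT. Every guide library lay below every NT library, by a small margin. The fall of 0.15 log2 units (edgeR adjusted p = 0.0303, SE 0.0484) was seen relative to the transcriptome only, since the log2 fold change per ERCC read was 0.24 (adjusted p = 0.0893). The call for Polr3b was lost without NT replicate 1, 2 or 3, and also without replicate 3 of Mycn-gRNA2 and without replicate 2, 3 or 4 of Mycn-gRNA3 (adjusted p 0.059 to 0.0858), and with no filter on low counts (adjusted p = 0.0565). Polr3a (chromosome 14, positions 24448694 to 24487046 of mm10, minus strand), the largest subunit and its partner in catalysis, read 58.8, 74.4, 68.3 and 66.2 CPM with Mycn-gRNA2 and 64.8, 65.4, 65.4 and 66.3 CPM with Mycn-gRNA3, against 70.6, 70.5, 72.1 and 72.3 CPM in NT. Mycn-gRNA2 replicate 2 was the 1 guide library above NT and the other 7 lay below, but the log2 fold change of -0.11 did not pass the test (edgeR adjusted p = 0.18, SE 0.0580). Polr3c and Polr3f belong to the initiation subcomplex that also holds Polr3g or Polr3gl. Polr3c averaged 48.6 ± 8.75 CPM with Mycn-gRNA2, 43.99 ± 0.637 CPM with Mycn-gRNA3 and 40.4 ± 2.596 CPM in NT (SD, n = 4 each), with Mycn-gRNA2 replicate 1 high at 61.1 CPM, and its log2 fold change was 0.19 (edgeR adjusted p = 0.124). Polr3f had 0.01 (adjusted p = 0.901), and Polr3d and Polr3e, a pair of subunits with roles in initiation and termination, had 0.12 (adjusted p = 0.129) and 0.05 (adjusted p = 0.592). Polr3k, which takes part in cutting back the nascent RNA and in termination, had 0.01 (adjusted p = 0.901), and none of its 8 guide libraries lay outside the NT range of 22.4 to 25.6 CPM. Summed per length, the 9 polymerase III subunits were at 428 to 459 TPM with Mycn-gRNA2, 432 to 444 TPM with Mycn-gRNA3 and 436 to 462 TPM in NT.

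The factors that start polymerase I transcription were not called relative to the transcriptome. Ubtf (chromosome 11, positions 102304563 to 102319096 of mm10, minus strand), which binds and opens ribosomal DNA, read 272, 347, 354 and 354 CPM with Mycn-gRNA2 and 347, 351, 351 and 364 CPM with Mycn-gRNA3, against 339, 353, 365 and 355 CPM in NT. Apart from Mycn-gRNA2 replicate 1 all libraries fell in 1 narrow band, and the log2 fold change was -0.04 (edgeR adjusted p = 0.65, SE 0.0664). Rrn3 (chromosome 16, positions 13780699 to 13814841 of mm10, plus strand), which makes polymerase I competent to initiate and through which growth signals such as mTOR are known to act, read 277, 327, 286 and 284 CPM with Mycn-gRNA2 and 265, 289.5, 290.5 and 296 CPM with Mycn-gRNA3, against 304, 323, 271 and 281 CPM in NT. The groups overlapped, with a log2 fold change of -0.03 (edgeR adjusted p = 0.781, SE 0.0629). Taf1b, Taf1c and Taf1d are parts of the selectivity factor that recognises the ribosomal DNA promoter. Taf1b averaged 29.2 ± 1.52 CPM with Mycn-gRNA2, 29.8 ± 0.452 CPM with Mycn-gRNA3 and 32.5 ± 1.71 CPM in NT (SD, n = 4 each), and all 8 guide libraries lay below NT, yet its log2 fold change of -0.14 missed the threshold (edgeR adjusted p = 0.0787). Taf1c averaged 39.9 ± 9.47 CPM with Mycn-gRNA2, 49.4 ± 2.01 CPM with Mycn-gRNA3 and 41.5 ± 1.22 CPM in NT (SD, n = 4 each), with Mycn-gRNA2 replicate 1 at 26.9 CPM far below the other libraries. Without Mycn-gRNA2 replicate 1, Taf1b was called lower at -0.15 (adjusted p = 0.0262) and Taf1c higher at 0.17 (adjusted p = 0.0262), whereas with all libraries Taf1c stood at 0.10 (adjusted p = 0.564). Taf1d had -0.04 (adjusted p = 0.721). Exons of Taf1c overlap Dnaaf1 on the opposite strand over 14.8% of their length and those of Taf1d overlap Cep295 over 4.94%. Reads on Rn45s, the ribosomal RNA precursor that polymerase I makes, were the most abundant in every library at 8.55% to 12.5% of mouse reads with Mycn-gRNA2, 8.35% to 10.7% with Mycn-gRNA3 and 7% to 11.7% in NT. The libraries were selected for polyA RNA and how much ribosomal RNA escaped that selection was not measured, so this share is not read as polymerase I output.

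Per ERCC read the picture was one of higher levels nearly throughout. With both guides against NT, 25 of the 31 genes were higher (80.6%) and 0 lower in edgeR, against 56.4% of all genes tested called higher and 0.931% lower. At an unadjusted p under 0.05 these counts were 27 and 0, and DESeq2 gave 26 and 0, with no share of all genes given beside them. The median log2 fold change was 0.45 for the 31 genes and 0.39 for all genes. All 3 polymerase I subunits, both subunits common to polymerases I and III, all 5 subunits common to the 3 enzymes, 5 of 7 of polymerase II, 6 of 9 of polymerase III and 4 of 5 polymerase I factors were higher. Those not called were Polr2a, Polr2c (0.28, adjusted p = 0.0667), Polr3a (0.28, adjusted p = 0.0534), Polr3b, Polr3gl and Taf1b (0.26, adjusted p = 0.0919). Among the largest subunits, Polr1a was higher per ERCC read by 0.36 log2 units (edgeR adjusted p = 0.0179, SE 0.128), while Polr2a and Polr3a were not called in edgeR. Polr3a was called by DESeq2 (adjusted p = 0.027) and by limma on the deposited log2 values (adjusted p = 0.0433), and in edgeR without NT replicate 2 (adjusted p = 0.0333), without Mycn-gRNA2 replicate 1 (adjusted p = 0.0377) or 2 (adjusted p = 0.011) and without Mycn-gRNA3 replicate 4 (adjusted p = 0.0482). The call for Polr1a was lost without NT replicate 1 (adjusted p = 0.0835) and without NT replicate 3 (adjusted p = 0.0517), and the subunits were not compared with each other by a test. On this scale Polr1a read 17.1, 14.6, 20.1 and 23.5 reads per 1000 ERCC reads with Mycn-gRNA2 and 21.4, 21.1, 24.8 and 19.98 reads per 1000 ERCC reads with Mycn-gRNA3, against 14.1, 17.7, 15.5 and 15.8 reads per 1000 ERCC reads in NT, and 6 of 8 guide libraries lay above NT. The count of 25 ranged from 17 (without NT replicate 1 or without NT replicate 4) to 29 (without Mycn-gRNA2 replicate 2) as single libraries were left out. No counts over all genes are given for those fits. The polymerase I factors fell to 1 of 5 called without NT replicate 1 and without NT replicate 4, where Ubtf, Rrn3 and Taf1d were lost (adjusted p 0.0561 to 0.0977). Polymerase II fell to 3 of 7 called without NT replicate 1, 3 or 4, where Polr2b and Polr2g were lost (adjusted p 0.0506 to 0.0903). The pair common to polymerases I and III fell to 1 of 2 without NT replicate 4, and the subunits common to all 3 enzymes to 4 of 5. Polymerase III fell to 4 of 9 called without NT replicate 1 and to 5 of 9 without NT replicate 3 or 4.

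**Figure D3:**
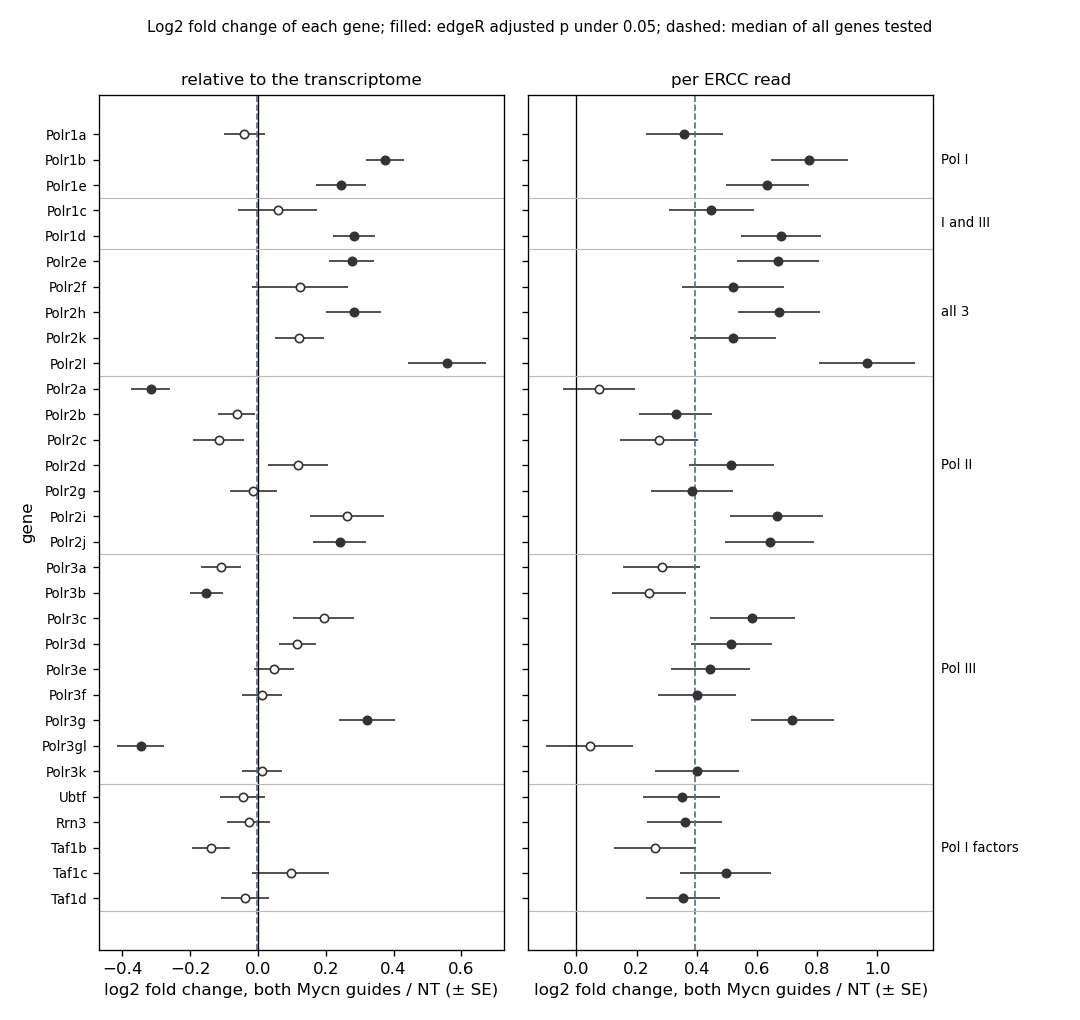
Log2 fold change (± SE from edgeR) of each gene with both Mycn guides over NT, relative to the transcriptome at the left and per ERCC read at the right; filled points passed an adjusted p under 0.05 and the dashed line is the median of all 14497 genes. Relative to the transcriptome 8 filled points lie above 0 and 3 below, whereas per ERCC read 25 lie above 0 and those 3 genes are open.

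Each guide was also set against NT by itself; both comparisons use the same 4 NT libraries. With Mycn-gRNA2, 5 genes rose and 2 fell relative to the transcriptome, where 10.1% of all genes were higher and 7.06% lower. With Mycn-gRNA3, 9 rose and 2 fell, where 14.8% of all genes were higher and 12.2% lower. Polr1b was higher by 0.33 log2 units (edgeR adjusted p = 0.00326, SE 0.0643) with Mycn-gRNA2 and by 0.42 log2 units (edgeR adjusted p = 0.000472, SE 0.0642) with Mycn-gRNA3. For Polr2l the values were 0.48 with Mycn-gRNA2 (adjusted p = 0.0225) and 0.64 with Mycn-gRNA3 (adjusted p = 0.00299). Polr1d, Polr2e and Polr3g also rose with either guide, and Polr2a and Polr3gl fell with either relative to the transcriptome. The log2 fold change of Polr2a was -0.32 with Mycn-gRNA2 (adjusted p = 0.00513) and -0.31 with Mycn-gRNA3 (adjusted p = 0.00424). That of Polr3gl was -0.41 with Mycn-gRNA2 (adjusted p = 0.00365) and -0.28 with Mycn-gRNA3 (adjusted p = 0.0199). Polr1e, Polr2h, Polr2j and Polr3d passed the threshold with Mycn-gRNA3 alone, at 0.24, 0.33, 0.31 and 0.18, beside 0.25, 0.24, 0.17 and 0.05 with Mycn-gRNA2. That contrast in calls is not shown to be a difference between the guides. In the direct test of Mycn-gRNA3 against Mycn-gRNA2, 0 of 31 genes were called in edgeR or DESeq2, with 0% of all genes called in edgeR. At an unadjusted p under 0.05, 2 genes were higher and 1 lower, and the share of all genes at that threshold was not computed. The largest difference between the guides was for Taf1c, at 0.31 (edgeR adjusted p = 0.549, SE 0.131). The separate counts depended on single libraries, and counts over all genes in the same fits are not given beside them. With Mycn-gRNA2 the 5 that rose became 3 without NT replicate 1 or 2 or Mycn-gRNA2 replicate 3 or 4. They became 2 without NT replicate 3 or 4, and the 2 that fell became 4 without Mycn-gRNA2 replicate 1. With Mycn-gRNA3 the 9 that rose became 5 without NT replicate 4 or without Mycn-gRNA3 replicate 3 and 4 without Mycn-gRNA3 replicate 4, and the 2 that fell became 1 without NT replicate 2, without NT replicate 3 or without Mycn-gRNA3 replicate 2.

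Per ERCC read, 11 genes were higher and 0 lower with Mycn-gRNA2 in edgeR, where 26.3% of all genes were higher and 0.517% lower. With Mycn-gRNA3 the counts were 29 higher and 0 lower, where 60.7% of all genes were higher and 0.504% lower. At an unadjusted p under 0.05 these counts were 18 and 0 with Mycn-gRNA2 and 29 and 0 with Mycn-gRNA3, and DESeq2 called 13 and 0 with Mycn-gRNA2 and 29 and 0 with Mycn-gRNA3. Polr2a and Polr3gl were the 2 genes not called with Mycn-gRNA3, at 0.17 (adjusted p = 0.278) and 0.19 (adjusted p = 0.304). The same 2 genes had negative values with Mycn-gRNA2, -0.02 for Polr2a (adjusted p = 0.921) and -0.10 for Polr3gl (adjusted p = 0.63). Between the guides 0 of 31 were called in either direction in edgeR or DESeq2, where 0.0069% of all genes were higher and 0% lower in edgeR. At an unadjusted p under 0.05 these were 4 higher and 0 lower. No share of all genes is given beside the unadjusted and DESeq2 counts. The median log2 fold change over all genes was 0.31 with Mycn-gRNA2 and 0.48 with Mycn-gRNA3, and the 11 genes with Mycn-gRNA2 became 17 without NT replicate 2 and 20 without Mycn-gRNA2 replicate 2. In the test between the guides, 4 genes were higher with Mycn-gRNA3 without Mycn-gRNA2 replicate 4. The fits with a library left out are given without counts over all genes.

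Set in order of level per length in NT, the genes ran from Polr1e at 16.4 ± 1.09 TPM and Polr3k at 20.9 ± 1.24 TPM to Rrn3 at 213.5 ± 15.1 TPM, Polr2e at 259 ± 20.2 TPM and Polr2a at 286 ± 14.8 TPM (SD, n = 4 each). With the guides the top of the order was Polr2e, at 307 ± 31.6 TPM with Mycn-gRNA2 and 307 ± 8.25 TPM with Mycn-gRNA3, above Polr2a at 226 ± 17.1 TPM with Mycn-gRNA2 and 224 ± 16.1 TPM with Mycn-gRNA3. With Mycn-gRNA3 Polr2f, at 242 ± 11.8 TPM, also lay above Polr2a. In NT Polr2e and Polr2a differed by less than the sum of their SDs. Polr1b lay above its catalytic partner Polr1a with Mycn-gRNA2 (115 ± 5.74 TPM beside 97.2 ± 6.37 TPM) and with Mycn-gRNA3 (120.2 ± 5.86 TPM beside 99.0 ± 4.43 TPM), and below it in NT (92.6 ± 0.486 TPM beside 103 ± 4.22 TPM). Polr3b exceeded its partner Polr3a in every group, at 68.9 ± 4.17 TPM with Mycn-gRNA2, 67.7 ± 4.57 TPM with Mycn-gRNA3 and 77.5 ± 1.36 TPM in NT beside 36.7 ± 3.35 TPM with Mycn-gRNA2, 35.4 ± 0.801 TPM with Mycn-gRNA3 and 39.7 ± 1.05 TPM in NT (SD, n = 4 each). Polymerase III subunits lay between 20.9 and 77.5 TPM in NT and polymerase II subunits between 50.9 and 286 TPM. Polr3g and Polr3gl averaged 49.4 and 46.2 TPM with Mycn-gRNA2 and 45.2 and 50.04 TPM with Mycn-gRNA3, against 38.6 and 62.5 TPM in NT. The polymerase I subunits summed to 231 ± 12.2 TPM with Mycn-gRNA2, 238 ± 10.1 TPM with Mycn-gRNA3 and 212 ± 3.33 TPM in NT, and their initiation factors to 658 ± 36.97 TPM with Mycn-gRNA2, 638 ± 14.4 TPM with Mycn-gRNA3 and 678 ± 6.01 TPM in NT (SD, n = 4 each).

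The changes were also set beside the length of the transcript. The median log2 fold change relative to the transcriptome over all genes was 0.08 for those with under 1000 bases of annotated exon, 0.04 from 1000 to under 2000, -0.003 from 2000 to under 4000 and -0.04 for 4000 and over. Of the polymerase genes, 2 of 6 in the shortest class rose and none fell, 3 of 9 rose and 1 fell (Polr3gl) in the next, 3 of 9 rose in the third, and 0 of 7 rose and 2 fell (Polr2a and Polr3b) in the longest. Of all genes 12.9% were higher and 5.58% lower in the shortest class, 15.9% and 9.28% in the next, 15.1% and 12.7% in the third and 14.2% and 17.8% in the longest. The medians of the polymerase genes were 0.18, 0.12, 0.10 and -0.04 in the same order of classes. Small subunits make up the shared set and large ones the catalytic set, so length and role overlap here, and the part of length in the results was not tested. The genes that rose in the shortest class were Polr2h and Polr2j, and in the next Polr1d, Polr2e and Polr2l, where Polr3gl, with 1427 bases of exon, fell relative to the transcriptome. In the third class Polr1b, with 3998, Polr1e and Polr3g, with 3060, rose. By chromosome the all-gene medians lay between -0.04 and 0.05 apart from chromosome 1 at -0.12, chromosome 8 at -0.11 and chromosome 14 at -0.08. Chromosome 1 holds no polymerase gene of the 31, chromosome 8 holds Polr2c and Taf1c, and chromosome 14 holds Polr3a and Polr3d, none of them called relative to the transcriptome.

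**Figure D4:**
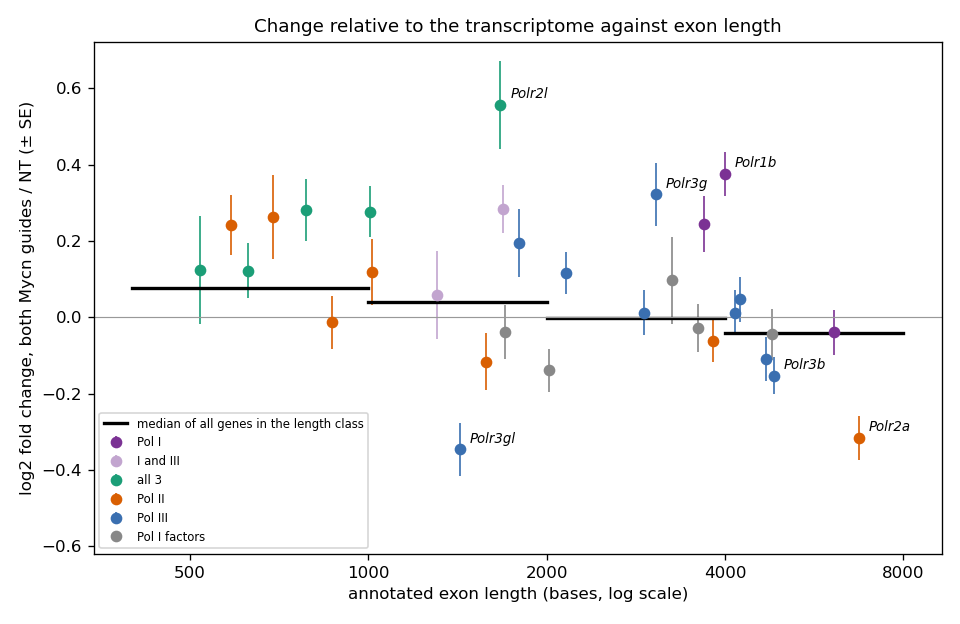
Log2 fold change (± SE) of each polymerase gene with both Mycn guides over NT, relative to the transcriptome, against its annotated exon length in bases on a log axis, coloured by enzyme; black lines give the median of all genes in each of 4 length classes, which goes from 0.08 for the shortest to -0.04 for the longest. Polr2a and Polr3b lie below the line of the longest class, Polr3gl below its own class and Polr2l, Polr1b and Polr3g above theirs; per ERCC read all 31 values are above 0.

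Beyond the 31, 49 further genes of polymerase I and III transcription, polymerase assembly and the polymerase II tail were examined. Relative to the transcriptome 6 rose (12.2%) and 4 fell (8.16%) with both guides against NT, beside the 14.9% and 13% of all genes. Per ERCC read 40 of the 49 were higher and 0 lower, beside 56.4% and 0.931% of all genes. At an unadjusted p under 0.05 the counts were 44 and 0, with no share of all genes given beside them. Ssu72, a phosphatase of the polymerase II tail, rose by 0.35 log2 units (edgeR adjusted p = 0.00318, SE 0.0732), and Ctdp1, another such phosphatase, by 0.24 (adjusted p = 0.0199). They belong to 8 polymerase II tail and termination factors examined, of which 2 were higher (25%), 0 lower and 6 not called relative to the transcriptome. The 8 values ran from -0.22 to 0.35 (median 0.03), where 14.9% of all genes were higher and 13% lower. Polr2a, the carrier of that tail, fell relative to the transcriptome, and a link between these changes was not tested. Znrd1, a small subunit of polymerase I, fell by 0.25 log2 units (edgeR adjusted p = 0.00609, SE 0.0588) relative to the transcriptome, with all 8 guide libraries below NT, and per ERCC read it had 0.15 (adjusted p = 0.34). Taf1a, the fourth part of the selectivity factor with Taf1b, Taf1c and Taf1d, fell by 0.24 relative to the transcriptome (adjusted p = 0.0317) and had 0.16 per ERCC read (adjusted p = 0.3). Of the 9 further polymerase I genes, 1 was higher (11.1%), 2 lower (22.2%) and 6 not called relative to the transcriptome (median -0.06). Of all genes 14.9% were higher and 13% lower. Among polymerase III initiation factors the TFIIIB parts Brf2 and Brf1 went opposite ways relative to the transcriptome, Brf2 higher by 0.32 (adjusted p = 0.0183) and Brf1 lower by 0.24 (adjusted p = 0.0248). Brf1 serves the transfer RNA and 5S genes and Brf2 the genes with an upstream promoter such as U6. Snapc5, part of a complex also used at such promoters, was higher by 0.30 (adjusted p = 0.023). Of the 16 polymerase III initiation and repressor genes examined, 2 were higher (12.5%), 1 lower (6.25%) and 13 not called relative to the transcriptome. These shares stand beside 14.9% and 13% of all genes. Per ERCC read Brf2 was higher by 0.73 (adjusted p = 0.000225), while Brf1 had 0.17 (adjusted p = 0.287). Slc7a6os, the mouse counterpart of the yeast polymerase import factor Iwr1, fell by 0.22 relative to the transcriptome (adjusted p = 0.0189) and had 0.17 per ERCC read (adjusted p = 0.261). The other 2 called, named after their values were seen, were the polymerase III subunit Crcp at 0.24 (adjusted p = 0.0319) and the polymerase I subunit Twistnb at 0.26 (adjusted p = 0.0445). Maf1, the repressor of polymerase III that mTOR is known to hold in check, had -0.06 (edgeR adjusted p = 0.625, SE 0.0890), and Polrmt, the polymerase of mitochondria, had 0.08 (edgeR adjusted p = 0.541, SE 0.0885). Single libraries moved these counts: the 6 became 1 without NT replicate 2, 3 without NT replicate 3, 2 without NT replicate 4 and 12 without Mycn-gRNA2 replicate 1. The 4 became 2 without NT replicate 1 or 4, 1 without NT replicate 3 and 7 without Mycn-gRNA2 replicate 1. Counts over all genes in these fits are not given.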

How the data were processed

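PolyA RNA of paused E14 cells was sequenced in 12 libraries, grouped and numbered by their titles. The authors deposited raw counts of reads for 24421 mouse genes and 92 ERCC RNAs. The submitters' processing notes name mm10, Trim Galore 0.4.0, featureCounts, Subread 1.5.0 and edgeR 3.32.1. An aligner, an annotation release and a strand setting are not stated there. A second deposited table holds log2 values of 12042 genes, which equal log2(count + 0.5) minus a constant per library (within 5.1e-14), and entered only an alternative test.

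The test used edgeR 4.0.16 in R 4.3.3 (robust quasi-likelihood F test, filterByExpr, 1 term per group, all 12 libraries, Benjamini-Hochberg adjustment over 14497 genes, call under 0.05). Library sizes were endogenous totals with TMM factors, or ERCC totals. TPM values used the deposited exon lengths. The ERCC RNAs were added after extraction, so differences in cell number or RNA yield between samples would enter that scale and were not checked. The procedures were run on simulated counts, where ERCC reads were drawn at a fixed share of each library. That run therefore could not test the ERCC scale for these samples. Levels carry counting error beside the spread between replicates. At 17248564 reads or more per library, the chi-square per degree of freedom between replicates was 8.57 or more. That value pools all genes with at least 20 reads in a pair of libraries, and genes with many reads weigh most in it. It does not show whether counting error or the spread between replicates is the larger for a single polymerase gene.

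The polymerase genes, the lists and the alternatives were chosen with earlier results of these data known. Values are given library by library for Polr1a, Polr2a, Polr3a, Polr3g, Polr3gl, Ubtf, Rrn3 and each gene called with both guides relative to the transcriptome, and of the 49 further genes up to 8 called with the lowest adjusted p, Polrmt and Maf1 are named. The library values of Polr2i were added after its values were seen. Whether the replicates come from separate cultures is not labelled, so a p-value reflects how these libraries spread, and that spread may be technical. Between the guides all 4 same-numbered pairs of libraries had correlated deviations (0.199 to 0.578 relative to the transcriptome, 0.122 to 0.552 per ERCC read), so there the numbers were taken as pairs from the data, not the labels; the replicate block called 0 of the 31 genes on either scale, as did the fit without it. Alternatives were other scalings (RLE factors, TMM over ERCC RNAs), DESeq2 1.42.0, limma 3.58.1 on the deposited log2 values, other filters, a fit of the groups compared alone, a replicate block, replicates 1 and 2 or 3 and 4 alone, and each library left out. A fit with only replicates 3 and 4 of Mycn-gRNA2 was added after seeing the data.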

Additional observations from a re-analysis of the deposited data

Results flagged for a closer look

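In 5 of 93 sets of 4 replicates (31 genes in 3 groups) a single library lay so far from the other 3 that its gap to the nearest one, divided by the range of the group, exceeded Dixon's critical value for 4 samples; chance gives about 1 in 20. Ubtf was at 272.3 CPM in Mycn-gRNA2 replicate 1, below 346.6 to 353.6 CPM in the other Mycn-gRNA2 libraries. Polr2d was at 32.68 CPM in the same library, below 41.95 to 43.24 CPM. Polr2a was at 656.9 CPM in Mycn-gRNA2 replicate 2, above 565.6 to 574.4 CPM in the others of that group, and still below the lowest NT library. Polr2f was at 35.52 CPM in NT replicate 4, below 43.5 to 44.26 CPM in the other NT libraries, and Taf1d was at 123.4 CPM in NT replicate 2, below the other NT libraries, of which the highest was at 131.3 CPM. Of these genes only Polr2a was called relative to the transcriptome, and it stayed called with each library left out in turn.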

How the results depend on the processing

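The 7 calls for Polr1b, Polr1d, Polr2e, Polr2l, Polr3g, Polr2a and Polr3gl relative to the transcriptome held with each library left out in turn, while those of Polr1e, Polr2h, Polr2j and Polr3b did not. With single libraries left out, the counts of polymerase genes relative to the transcriptome ranged from 5 to 11 higher and 2 to 4 lower with both guides, 2 to 7 and 2 to 4 with Mycn-gRNA2 and 4 to 12 and 1 to 3 with Mycn-gRNA3, and the further genes from 1 to 12 and 1 to 7. Per ERCC read they ranged from 17 to 29 higher with both guides, 8 to 20 with Mycn-gRNA2, 23 to 29 with Mycn-gRNA3 and 0 to 4 for Mycn-gRNA3 over Mycn-gRNA2. Counts over all genes are not given for the fits with a library left out, so these ranges are not read as particular to the polymerase genes.

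Replicates 1 and 2 alone gave 0 higher and 0 lower relative to the transcriptome with both guides and with each guide, 0 and 0 among the further genes, and per ERCC read 1 higher with both guides, 0 with Mycn-gRNA2, 6 with Mycn-gRNA3 and 3 for Mycn-gRNA3 over Mycn-gRNA2; over all genes they gave 151 higher and 27 lower relative to the transcriptome with both guides, and per ERCC read 1101 higher with both guides, 404 with Mycn-gRNA2, 2784 with Mycn-gRNA3 and 517 for Mycn-gRNA3 over Mycn-gRNA2. Replicates 3 and 4 alone gave 13 higher with both guides, 9 with Mycn-gRNA2 and 14 with Mycn-gRNA3 (3324 and 3061 over all genes with both guides), 11 higher and 8 lower among the further genes, and 27 per ERCC read with Mycn-gRNA2 (8080 over all genes). With Mycn-gRNA2 replicates 3 and 4 only, chosen after seeing the data, there were 5 lower with both guides, 4 lower with Mycn-gRNA3, 11 higher and 9 lower among the further genes, and 27 per ERCC read with Mycn-gRNA2. A fit of the groups compared alone gave 3 higher with Mycn-gRNA2 and 5 lower with Mycn-gRNA3. Counts over all genes are not given here for that fit or for the fit with Mycn-gRNA2 replicates 3 and 4 only. The fit on replicates 1 and 2 and the fit on replicates 3 and 4 hold equal numbers of libraries. Why their counts differ was not tested, nor was the cause of the changes in the other fits.

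In the comparisons with NT, 2 of 4 same-numbered pairs with either guide had a correlation over 0.1 in their deviations relative to the transcriptome (0.00957 to 0.365 with Mycn-gRNA2, 0.0753 to 0.271 with Mycn-gRNA3), so the numbers were not taken as pairs there. Over all group pairs 16 of 24 comparisons had a library closest to its own number, where other-numbered libraries had a median correlation of -0.0752, a hint from the data that the numbers may mark something shared. With both guides the replicate block gave 8 polymerase genes higher and 3 lower relative to the transcriptome, beside 2325 and 2131 of all genes. It gave 4 and 2 with Mycn-gRNA2 (1593 and 1214 of all genes) and 7 and 2 with Mycn-gRNA3 (2361 and 2053). Per ERCC read it gave 25, 10 and 24 higher in the same order (7393, 3129 and 8212 of all genes).

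Each value that changed sign was of a gene not called. With replicates 1 and 2 alone these were Polr1c -0.0805, Polr2f -0.13, Polr3e -0.00218, Polr3k -0.0379, Taf1c -0.0204, Taf1d 0.0379 and, per ERCC read, Polr3gl -0.0882. With replicates 3 and 4 alone they were Polr1a 0.022, Polr2c 0.0085, Polr2g 0.0969, Polr3f -0.019 and Rrn3 0.0658, and with Mycn-gRNA2 replicates 3 and 4 only Polr2g 0.00903 and Polr3f -0.0308. With single libraries left out, signs changed within -0.0259 to 0.128 for Polr1c, -0.0566 to 0.032 for Polr2g, -0.0182 to 0.0291 for Polr3f, -0.0101 to 0.056 for Polr3k, -0.0655 to 0.0184 for Rrn3, -0.0627 to 0.00564 for Taf1d and, per ERCC read, -0.0483 to 0.163 for Polr3gl.

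DESeq2, RLE factors, TMM over ERCC RNAs, limma on the deposited log2 values and the stricter filter kept each count within 1.5 times the reported one.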
